A study of Mus musculus and Mus musculus x Mus spretus with 14 samples.

Results

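The miR-30 family was followed across 13 mouse skin cell lines that span the stages of skin carcinogenesis. Its members were the 5 probes of the deposited array table whose identifier names mmu-miR-30a, mmu-miR-30b, mmu-miR-30c, mmu-miR-30d or mmu-miR-30e (written without the mouse prefix below), without the star forms from the other arm of the hairpin, of 576 probes that name a mouse miRNA and 1271 probes in all. One Exiqon array was hybridised per line with total RNA labelled with Cy3, and line A5 had 2 arrays, which were averaged and counted as 1 line.

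The 5 malignant spindle lines, which have lost epithelial morphology, were A5, D3, CARB, CARC and H11. The 3 malignant squamous lines were B9, E4 and PDVC57. The 5 non-malignant squamous lines were the papilloma lines MSCP1 and P6 and C5N, C50 and NK, which are immortalized keratinocytes. B9, A5 and D3 are clonally related lines from 1 tumour of a Mus spretus and CBA hybrid treated repeatedly with the carcinogen DMBA. E4 and H11 are clonally related single-cell clones of SN161, a culture from a lymph node metastasis of a 129/NIH hybrid mouse. CARB and CARC came from NIH/Swiss mice treated with DMBA and the promoter TPA. PDVC57 came from a tumour grown in a C57 mouse from keratinocytes transformed in culture with DMBA. MSCP1 and P6 came from hybrids of Mus spretus and CBA given DMBA and TPA, C5N from a BALB/c mouse by single-cell cloning of MCA3D keratinocytes, and NK from a p53 null mouse, while the labels give no strain for C50. The labels disagree on Mus spretus ancestry for NK and P6: the organism field gives it for NK and not for P6, and the description the other way round. All lines were grown in the same medium with foetal bovine serum. Each line is 1 culture, so every p-value rests on the spread between lines within groups, and related lines are not independent. In the comparisons of phenotypes that spread is pooled over all lines of the fit, also lines outside the comparison.

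MicroRNAs are short RNAs that guide Argonaute proteins to matching sites in messenger RNAs, mainly through the seed near their 5′ end. The miR-30 family shares 1 seed and is transcribed from 3 pairs of hairpins. It is expressed in most tissues, including epithelia, and is known for repressing Snai1, a transcription factor of the epithelial to mesenchymal transition, and Becn1, a regulator of autophagy. Spindle carcinoma lines stand at the mesenchymal end of that transition and squamous lines at its epithelial end, which is the contrast the array set holds.

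The mature sequences are shown because the members differ by few bases outside the seed, on an array that reads each by hybridisation. They are from RefSeq on GRCm38.p6, 5′ to 3′, with the seed (bases 2 to 8) in capitals.
miR-30a-5p: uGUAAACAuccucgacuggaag
miR-30c-5p: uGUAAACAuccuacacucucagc
miR-30e-5p: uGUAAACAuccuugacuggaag
miR-384-5p: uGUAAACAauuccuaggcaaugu

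Counting from 1 at the 5′ end, miR-30a-5p and miR-30e-5p differed at 1 of 22 positions (C13U). From miR-30a-5p to miR-30c-5p there were 5 differences over 22 positions (C13A, G14C, G18C, G19U and A20C). Of 1679 mature mouse names in the sequence table, 4 carried the seed GUAAACA, the 4 shown above. The sequences searched held no entry for mouse miR-30b or miR-30d, so the search could not find these members. Of the 4, miR-384-5p matched miR-30a-5p at 12 of 22 positions. Mature miR-30a-5p lies at chr1:23272274-23272295 on the plus strand of GRCm38.p6, and miR-30e-5p at chr4:120772660-120772681 on the minus strand. The mature sequence of miR-30c-5p comes from 2 hairpins, at chr1:23291714-23291736 on the plus strand (Mir30c-2) and at chr4:120769584-120769606 on the minus strand (Mir30c-1). Mir30c-1 and Mir30e, 2983 bases apart, both lie inside the span of Nfyc, which encodes a subunit of the transcription factor NF-Y. Mir30a and Mir30c-2 are 19361 bases apart and lie inside no other gene of the RefSeq table. Mir30b (chr15:68337415-68337510) and Mir30d (chr15:68341208-68341289) are 3697 bases apart and likewise lie inside no other gene of that table.

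The arrays of 3 lines stood apart, and the members' values rest on them in part. Median correlations with the other arrays over mouse probes were 0.735 and 0.747 on the 2 A5 arrays and 0.332 on the C5N array, against 0.813 to 0.901 on the arrays of the other 11 lines. On the MSCP1 array 37 mouse probes exceeded the negative control median by over 1 log2 unit, against 119 to 185 on the other arrays. The lines' lineage was read from lists of other miRNAs. The 7 epithelial and keratinocyte probes averaged 6.64 to 6.91 by line in spindle lines, where 0 of 7 probes lay more than 1 above the negative controls in any line, 7.33 to 8.97 in malignant squamous lines and 7.27 to 10.1 in non-malignant squamous lines. The 5 mesenchymal probes averaged 7.22 to 8.84, 6.88 to 7.02 and 6.83 to 7.02 in the same groups. The 6 blood cell probes averaged 6.71 to 8.03, 6.76 to 7.68 and 6.64 to 6.82, with 3, 2 and 0 of them more than 1 above the controls in any line, while 0 of 2 endothelial probes reached that level in any group. The part of these differences in the miR-30 results was not tested.

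Levels are deposited log2 signals, in which 1 unit is a doubling of signal, and the negative controls had medians of 6.502 to 6.711 by array. A level counts as measured above background here when it lay more than 1 unit above that median. Of the 5 members, miR-30a and miR-30e passed in 12 of 13 lines, miR-30c in 11, miR-30b in 10 and miR-30d in 9. All 5 members passed in 9 lines, and CARB passed for 4, C5N for 3, A5 for 2 and MSCP1 for 0. A difference that involves a value at background can understate the change of the miRNA. In A5, C5N and MSCP1, however, such values come from the arrays that stood apart. The direction of any error in their differences was not tested.

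mmu-miR-30a, the member known for repressing Becn1, read 7.94 in A5, 8.60 in CARC, 8.70 in CARB, 9.33 in D3 and 10.24 in H11 among spindle lines. Malignant squamous lines had 9.60 in PDVC57, 9.87 in B9 and 10.49 in E4. Non-malignant squamous lines had 7.58 in MSCP1, 8.31 in C5N, 9.45 in P6, 10.15 in NK and 10.56 in C50. The highest spindle line, H11, lay inside the malignant squamous range, and the other 4 spindle lines lay below it. The non-malignant lines covered the whole range of the other groups and went beyond it at both ends.

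mmu-miR-30c, made from 2 loci, read 7.10 in A5, 8.45 in CARC, 8.54 in CARB, 9.17 in D3 and 9.82 in H11 among spindle lines. It read 9.12 in PDVC57, 9.66 in B9 and 9.78 in E4, the malignant squamous lines. In non-malignant squamous lines it read 7.23 in MSCP1, 8.29 in C5N, 8.96 in P6, 9.64 in NK and 9.99 in C50. Spindle and malignant squamous lines overlapped, with D3 and H11 inside or within 0.04 of the malignant squamous range. A5 and MSCP1 were the lowest of all 13 lines, 0.13 apart, and the 2 A5 arrays differed by 0.17.

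mmu-miR-30b, which shares a locus with miR-30d, read 6.63 in A5, 8.36 in CARC, 8.44 in CARB, 9.17 in D3 and 9.71 in H11 among spindle lines. Malignant squamous lines lay close together, at 9.31 in E4, 9.32 in PDVC57 and 9.70 in B9. Non-malignant squamous lines had 6.54 in C5N, 7.09 in MSCP1, 9.16 in P6, 9.61 in NK and 10.27 in C50. In A5 and C5N the probe stood at its array's negative controls, 0.05 and 0.09 below their median. It had the widest range of the members, 3.72 over 13 lines.

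mmu-miR-30d, the partner of miR-30b on chromosome 15, read 7.33 in CARB, 7.53 in A5, 7.80 in CARC, 8.15 in D3 and 8.58 in H11 among spindle lines. Malignant squamous lines had 7.68 in E4, 8.25 in B9 and 8.27 in PDVC57. Non-malignant squamous lines had 7.03 in MSCP1, 7.22 in C5N, 7.92 in P6, 8.08 in NK and 8.55 in C50. All groups overlapped, and the range over 13 lines was 1.55, the narrowest of the 5 members.

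mmu-miR-30e, which lies with miR-30c-1 in Nfyc, read 7.95 in CARB, 7.99 in CARC, 8.15 in A5, 8.52 in D3 and 9.06 in H11 among spindle lines. Malignant squamous lines had 7.86 in E4, 8.52 in PDVC57 and 9.34 in B9. Non-malignant squamous lines had 7.31 in MSCP1, 8.12 in C5N, 8.16 in P6, 9.14 in NK and 9.58 in C50. E4 was among the lower lines for miR-30e, within 0.13 of CARB and CARC, and among the highest for miR-30a, within 0.06 of C50. Over the 5 members the 2 A5 arrays differed by 0.02 to 0.17. This is the only repeat of a line, so neighbouring lines this close cannot be ordered.

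**Figure D1:**
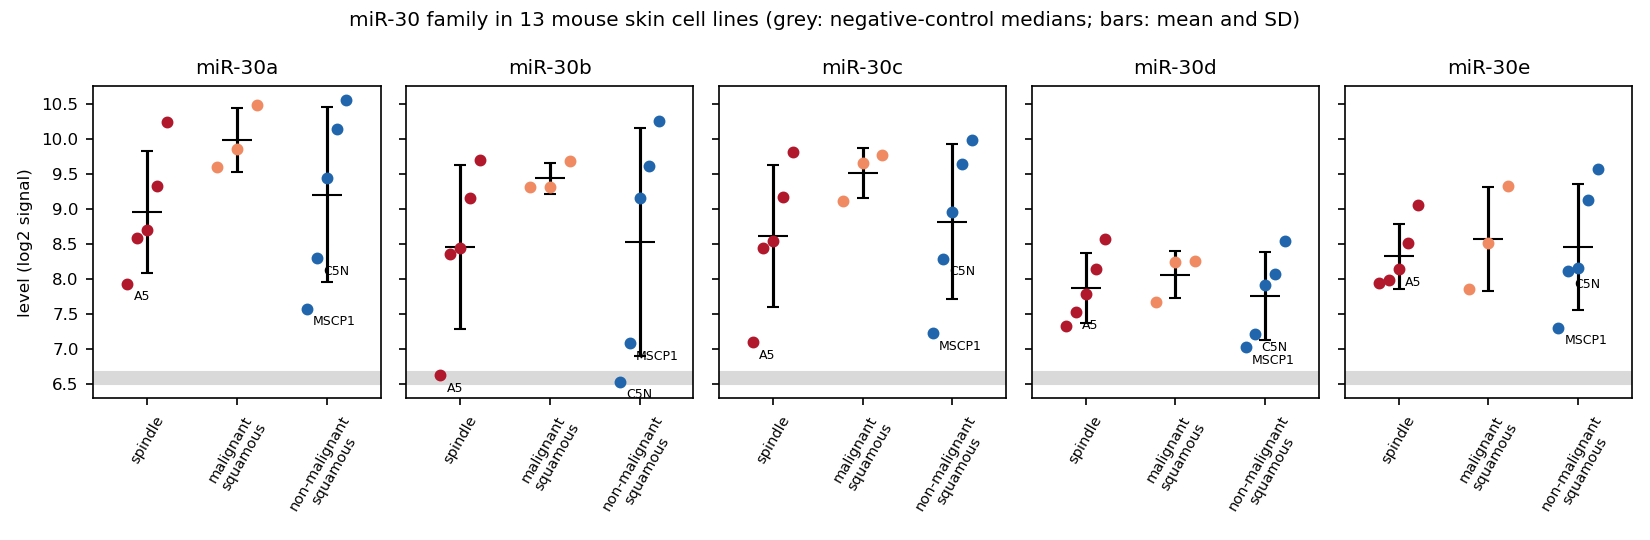
Level of each miR-30 member (y axis, log2 signal) in each line (points), by phenotype (x axis), with the mean and SD of the group as bars and the range of negative-control medians in grey. The groups overlap for all 5 members, and A5, C5N and MSCP1 are named beside their points. MSCP1 is low for every member, while for miR-30e C5N (8.12) and A5 (8.15) lie above E4, CARB and CARC.

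Morphology was compared within malignancy, between spindle and malignant squamous lines. All 5 members had lower means in spindle lines on the deposited scale, 4 of them higher means relative to U6, and 0 of 5 passed the threshold on either scale. Spindle lines averaged 8.96 ± 0.87 (SD, n = 5) for miR-30a and malignant squamous lines 9.99 ± 0.46 (n = 3), a difference of -1.03 ± 0.73 (SE, 95% interval -2.59 to 0.54, limma adjusted p = 0.99). For miR-30b the spindle mean was 8.46 ± 1.16 and the malignant squamous mean 9.44 ± 0.22, a difference of -0.98 (interval -2.81 to 0.85). For miR-30c the spindle mean was 8.62 ± 1.01 and the malignant squamous mean 9.52 ± 0.35, a difference of -0.90 (interval -2.39 to 0.59). miR-30d and miR-30e differed least, by -0.19 (interval -1.05 to 0.67) and -0.24 (interval -1.40 to 0.92). The median difference of the 5 members was -0.90, against -0.01 over all 576 mouse probes and -0.10 over the 240 of them that were above background in at least 2 lines.

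The adjusted p was 0.99 for each of the 5 members in this comparison, and limma called 0 of 576 probes (0%) at an adjusted p under 0.05. At an unadjusted p under 0.05 there were 17 of the 576 probes and 0 of the members. The groups did not overlap for 0 of 5 members, where this held for 22 of 576 probes (3.82%). When each array was taken relative to its U6 probes, miR-30b, miR-30c, miR-30d and miR-30e were higher in spindle lines. That scaling moved the median of all probes by 1.00. The members' median relative to the median of all probes was -0.89, which a shift of all probes alike cannot change. Without A5 the median difference was -0.52. Without C5N, MSCP1 and A5 the SE for miR-30b fell from 0.85 to 0.43, although C5N and MSCP1 are in neither group compared.

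Against non-malignant squamous lines, spindle lines had lower means for 4 of 5 members and a higher mean for miR-30d, which was lower too relative to U6, to the broadly expressed miRNAs or to the 75th percentile of bright probes. None of the 5 passed the threshold on any of these scales. For miR-30a spindle lines averaged 8.96 ± 0.87 and non-malignant squamous lines 9.21 ± 1.25 (SD, n = 5 each), a difference of -0.25 (interval -1.61 to 1.11, limma adjusted p = 0.92). miR-30b differed by -0.07, and its interval from -1.65 to 1.51 allowed a change of more than 1 unit either way. miR-30c differed by -0.21 (interval -1.50 to 1.09), miR-30d by 0.12 (interval -0.63 to 0.86) and miR-30e by -0.13 (interval -1.13 to 0.87). Their median difference was -0.13, against 0.03 over all mouse probes and 0.26 over the 240 above background. Limma called 0 members and 0 of 576 probes (0%), with 0 members and 49 probes at an unadjusted p under 0.05, and 0 of 5 members did not overlap between the groups, against 6 of 576 probes (1.04%).

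The lines that stand apart moved this comparison. With C5N, MSCP1 and A5 set aside, a choice among lines whose levels were already known, all 5 members were lower in the 4 remaining spindle lines than in P6, C50 and NK, with a median difference of -0.58, and 0 were called. For miR-30a these spindle lines then averaged 9.22 ± 0.76 (SD, n = 4) and these non-malignant lines 10.05 ± 0.56 (n = 3). For miR-30b the means were 8.92 ± 0.64 over those spindle lines and 9.68 ± 0.56 over those non-malignant lines. Every member had its 2 lowest non-malignant values in MSCP1 and C5N, so leaving these lines out raises that group. Leaving out 1 line alone, the median difference was 0.17 without A5, 0.15 without C50 and 0.04 without NK, against -0.43 without MSCP1, -0.38 without H11 and -0.34 without C5N.

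Malignant squamous lines had higher means than non-malignant squamous lines for all 5 members on the deposited scale, and lower means when C5N, MSCP1 and A5 were left out or when arrays were taken relative to U6, to the broadly expressed miRNAs or to the 75th percentile of bright probes. Those 3 scalings moved the median of all probes by -2.36, -0.97 and -1.19. Each shifts all probes of an array alike, so the members' median relative to the median of all probes, 0.67, could not change. It was 0.16 with quantile normalization, -0.09 with array weights and -0.13 without C5N, MSCP1 and A5. miR-30b differed most, with a malignant mean of 9.44 ± 0.22 (SD, n = 3) and a non-malignant mean of 8.53 ± 1.63 (n = 5), a difference of 0.91 (95% interval -0.92 to 2.74, limma adjusted p = 0.87). miR-30a differed by 0.78 (interval -0.79 to 2.35), miR-30c by 0.70 (interval -0.79 to 2.19), miR-30d by 0.31 (interval -0.55 to 1.16) and miR-30e by 0.11 (interval -1.05 to 1.27). The median was 0.70, against 0.03 over all mouse probes and 0.30 over the 240 above background. On the deposited scale limma called 0 members and 0 of 576 probes (0%), with 0 members and 26 probes at an unadjusted p under 0.05. Relative to U6 it called 4 of the 5 members, each lower in malignant lines, and 519 of 576 probes. The groups did not overlap for 0 of 5 members, against 28 of 576 probes (4.86%). The members' median difference was -0.12 without C5N, MSCP1 and A5, 0.30 without MSCP1 alone and 0.41 without C5N alone.

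**Figure D2:**
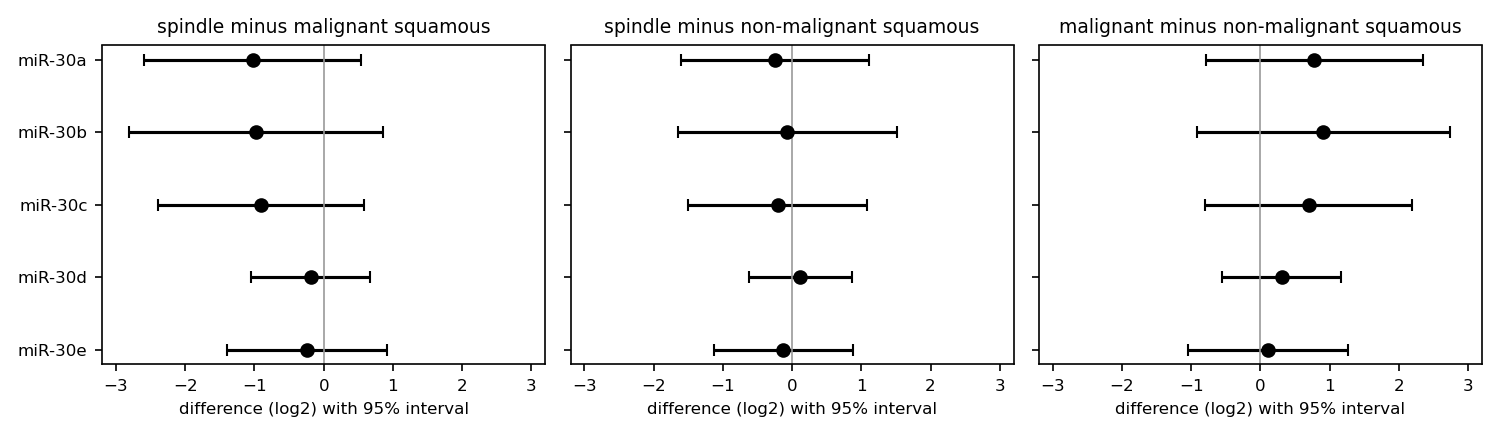
Difference in mean level (x axis, log2 units, with the 95% interval from limma) of each miR-30 member (y axis) in 3 comparisons of phenotypes. All 15 intervals include 0, and the differences run from -1.03 to 0.91.

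Within the non-malignant lines, the 2 papilloma lines were below the 3 immortalized keratinocyte lines in mean for all 5 members, although miR-30b and miR-30d were above them when arrays were taken relative to the 75th percentile of bright probes. miR-30e averaged 7.74 ± 0.60 (SD, n = 2) in papilloma and 8.94 ± 0.75 (n = 3) in immortalized lines, a difference of -1.21 (95% interval -2.55 to 0.14, limma adjusted p = 1.00). miR-30c differed by -1.21 and miR-30a by -1.16, and their intervals reached 0.61 and 0.79. miR-30b differed by -0.69 and miR-30d by -0.48. The median was -1.16, against -0.12 over all mouse probes and -0.31 over the 240 above background. Limma called 0 members and 0 of 576 probes (0%), with 0 members and 14 probes at an unadjusted p under 0.05, and 0 members did not overlap, against 59 of 576 probes (10.2%). Without MSCP1, which leaves P6 as the only papilloma line and assumes that it varies like the other groups, the median was -0.23, and without C50 it was -0.72.

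The sister lines give a contrast of morphology at a shared origin. A5 was below its squamous sister B9 for all 5 members, with differences of -3.07 for miR-30b, -2.56 for miR-30c, -1.93 for miR-30a, -1.19 for miR-30e and -0.72 for miR-30d. D3, the other spindle line of that tumour, was below B9 too, with differences from -0.82 for miR-30e to -0.11 for miR-30d. In the second tumour, H11 was above E4 by 1.19 for miR-30e, 0.90 for miR-30d, 0.40 for miR-30b and 0.04 for miR-30c, and below it for miR-30a, with a difference of -0.25. The median of the members was -1.93 in A5 over B9, -0.53 in D3 over B9 and 0.40 in H11 over E4. Over the mouse probes above background in either line of a pair (203, 205 and 173 probes), the medians were -0.27, -0.02 and 0.34. The mean of the broadly expressed miRNAs differed by -1.15, -0.04 and 0.63 in the same pairs.

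With the tumour as a fixed block over these 5 lines, the differences of spindle from squamous lines were -0.86 for miR-30b, -0.86 for miR-30c, -0.81 for miR-30a, -0.06 for miR-30e and 0.15 for miR-30d. Limma called 0 members and 0 of 576 probes (0%), with an adjusted p of 0.98 to 0.99 for the members and 0 members and 7 probes at an unadjusted p under 0.05. The members overlapped in 5 of 5 cases, and 67 of 576 probes (11.6%) did not overlap. The members' median of -0.81 turned to 0.40 without B9, was -0.07 without A5, and was -1.23 without E4 or without H11. The contrast of sister lines in the second tumour minus that in the first was 2.20 ± 2.30 (SE) for miR-30e, 2.20 ± 2.52 for miR-30b, 1.56 ± 2.63 for miR-30c, 1.32 ± 1.82 for miR-30d and 0.98 ± 2.78 for miR-30a. Limma called 0 members for this difference (adjusted p = 0.99 for each) and 4 of 576 probes, with 0 members and 28 probes at an unadjusted p under 0.05. A5 and D3 are the only repeated type within a tumour, so the spread of each probe in that fit has 1 degree of freedom of its own and is moderated across probes.

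**Figure D3:**
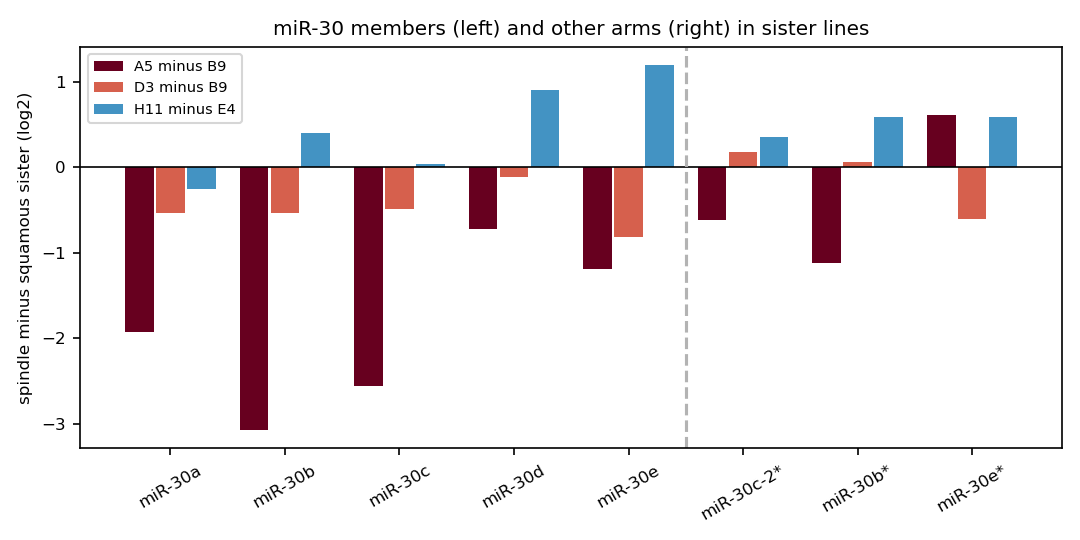
Difference of each spindle line from its squamous sister (y axis, log2 units) for the 5 miR-30 members and 3 probes of the other hairpin arm (x axis). Each bar is 1 line minus 1 line, without replicates. A5 is below B9 for all 5 members, with differences from -3.07 to -0.72, while H11 is above E4 for miR-30b, miR-30c, miR-30d and miR-30e.

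The members did not move as 1 block in every line. Relative to each member's own mean over the 13 lines, C5N was at -2.17 for miR-30b and at -0.32 for miR-30e. A5 was at -2.09 for miR-30b and -1.80 for miR-30c, against -0.29 for miR-30e. E4 was at 1.20 for miR-30a and at -0.58 for miR-30e. In these 3 lines the members spread over 1.78 to 1.85 units, and in the other 10 lines over 0.32 to 0.87. The arrays of A5 and C5N stood apart, and miR-30b stood at the negative controls in both lines. The members also differed in range over the 13 lines, from 1.55 for miR-30d to 3.72 for miR-30b. The part of these limits in the unequal deviations was not tested.

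**Figure D4:**
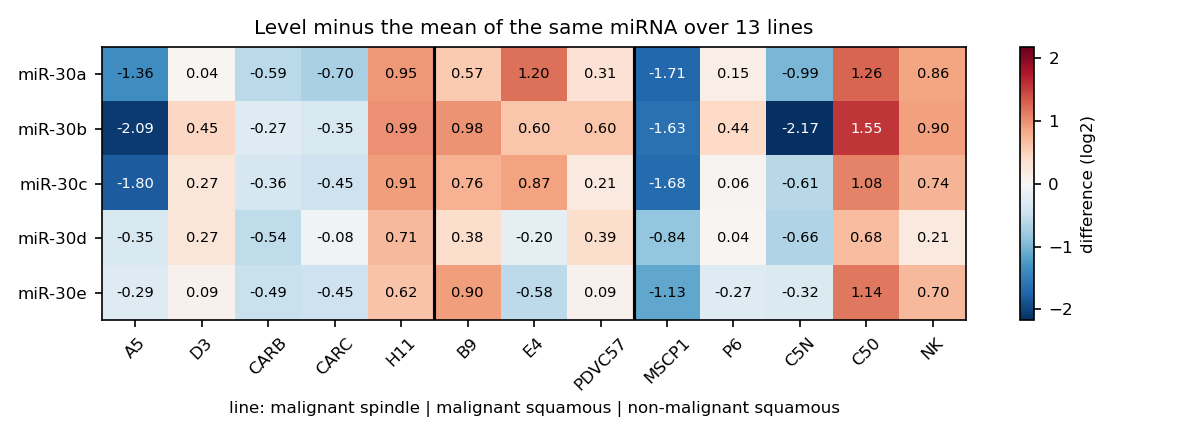
Level of each member (rows) in each line (columns) minus the mean of that member over the 13 lines (log2 units, colour and printed value), with spindle lines on the left, malignant squamous lines in the middle and non-malignant squamous lines on the right. D3, H11, B9, PDVC57, C50 and NK are above the mean for every member, while CARB, CARC, A5, C5N and MSCP1 are below it for every member.

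Members were compared pairwise over the 13 lines, and these correlations describe arrays that also share their depth of signal. miR-30a and miR-30c went together most closely, with Pearson's r of 0.97 over 13 lines and 0.97 over the 10 lines without C5N, MSCP1 and A5. miR-30b followed both, with r of 0.92 to miR-30a and 0.92 to miR-30c. miR-30d and miR-30e had r of 0.86 to each other over 13 lines and 0.83 over 10 lines. The pair with a single base of difference, miR-30a and miR-30e, had r of 0.72 over 13 lines and 0.60 over 10 lines. Of the hairpin pairs, miR-30a and miR-30c had r of 0.97, miR-30b and miR-30d 0.85, and miR-30c and miR-30e 0.73. miR-30c is made from both of its loci and so enters the first and the last of these pairs. Whether a probe also captures a near-identical member was not tested.

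The family was set beside the broadly expressed miRNAs of each array. Spindle lines had a mean of the 5 members of 8.45 ± 0.76 (SD, n = 5), malignant squamous lines one of 9.12 ± 0.21 (n = 3) and non-malignant squamous lines one of 8.56 ± 1.07 (n = 5). The mean of 25 probes for let-7, miR-16, miR-21, miR-23, miR-24, miR-26, miR-27 and miR-29 miRNAs was 9.93 ± 0.50, 10.09 ± 0.32 and 9.12 ± 1.24 in the same groups. The difference between the means was -1.48 ± 0.33 in spindle lines, -0.98 ± 0.15 in malignant squamous lines and -0.56 ± 0.42 in non-malignant squamous lines. It ran from -1.83 in A5 to -0.98 in H11 among spindle lines, from -1.09 to -0.80 among malignant squamous lines and from -1.19 in P6 to -0.03 in C5N among non-malignant lines. H11 and P6 were thus the lines by which the groups overlapped. With arrays taken relative to these miRNAs, a scaling added after the values were known, the members' median difference was -0.94 in spindle against non-malignant lines and -0.74 in spindle against malignant squamous lines, with 0 members called in either. That scaling moved the median of all probes by -0.81 and 0.16 in these comparisons. Relative to the median of all probes the members' medians were -0.16 and -0.89, which a shift of all probes alike cannot change. On the deposited scale 23 of the 25 list probes were higher in spindle than in non-malignant lines, with a median of 0.78 and 0 called. Of all 576 mouse probes 318 were higher. Among non-malignant lines the list mean was 7.72 in C5N and 7.83 in MSCP1, whose arrays stood apart, against 9.90 in NK, 9.92 in P6 and 10.23 in C50.

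**Figure D5:**
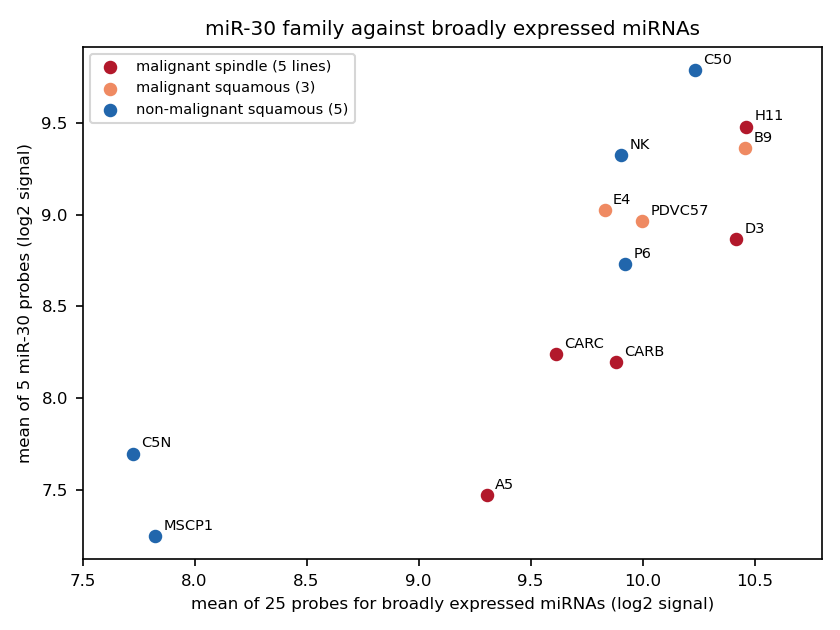
Mean of the 5 miR-30 probes (y axis) against the mean of 25 probes for broadly expressed miRNAs (x axis), both in log2 signal, 1 point per line. MSCP1 and C5N are low on both axes, at 7.25 and 7.70 for miR-30, and A5 has 7.47 for miR-30 at 9.30 for the other miRNAs.

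Over 13 lines the 2 means had Pearson's r of 0.82, and over the 10 lines without C5N, MSCP1 and A5 r was 0.64. The U6 probes, taken here as a measure of RNA input, averaged 11.8 ± 0.90 over spindle lines, 12.8 ± 0.75 over malignant squamous lines and 10.4 ± 1.47 over the non-malignant lines. On the C5N array the first U6 probe read 6.48, below the negative control median of 6.63. The U6 mean had r with the miR-30 mean of 0.56 over 13 lines and 0.09 over 10 lines. The part of U6 in the miR-30 differences was not tested.

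The mouse miRNAs most like the miR-30 mean over 13 lines were miR-320 (r = 0.92), miR-26b (0.91), miR-24-2* (0.91), miR-27b (0.91) and miR-106b (0.91). Over 10 lines their r was 0.84, 0.80, 0.84, 0.82 and 0.73, and over 13 lines with quantile normalization 0.84, 0.83, 0.90, 0.82 and 0.85. Of single members, miR-30a and miR-30c were most like miR-23a (0.91 and 0.90), miR-30b most like miR-26b (0.96), miR-30d most like miR-320 (0.92) and miR-30e most like miR-24 (0.87). Of all these, miR-23a, miR-24, miR-26b and miR-27b are in the broadly expressed list, and the arrays share their depth of signal. By Spearman's rho 3 of the first 5 stayed among the first 5, and over the 10 lines 2 did, miR-24-2* and miR-320.

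The other arms of the hairpins were read by 5 further probes that name a mouse miRNA, and their sequences show how far they lie from the members. With the seed in capitals, from RefSeq on GRCm38.p6, 2 of them are
miR-30c-2-3p: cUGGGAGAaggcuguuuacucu
miR-30e-3p: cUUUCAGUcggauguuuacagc

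The array names these arms miR-30c-2* and miR-30e*. miR-30c-2* was above background in 11 of 13 lines. Spindle lines averaged 8.47 ± 0.83, malignant squamous lines 8.53 ± 1.00 and non-malignant lines 7.91 ± 1.05. It read 9.71 in D3, 9.53 in B9 and 8.91 in A5, the lines of the first tumour, where A5 minus B9 was thus -0.62, against -2.56 for miR-30c. E4 and H11 had 7.54 and 7.90.

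miR-30e* went another way than miR-30e in A5, at 8.49 there against 7.88 in B9 and 7.28 in D3. Its highest level was 9.13 in C5N, where the 5 members were below their means. The mouse miR-30b* probe ran from 6.72 in A5 to 7.93 in P6. miR-30a* stayed within 1 unit of the negative controls in all 13 lines, and miR-30c-1* in all lines but CARB. miR-384-5p, which shares the seed, read 6.26 to 6.82 and was above background in 0 of 13 lines. None of these probes passed limma's threshold in the 5 comparisons.

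A probe that names only human miR-30b* read 8.95 to 10.6 in 11 lines, 7.93 in MSCP1 and 6.30 in C5N. Its r with the U6 mean was 0.90 over 13 lines, against 0.56 with the miR-30 mean, and it was not used as a measure of miR-30b. A probe that names only human and rat miR-30d* read 6.58 to 7.23 and was above background in 0 of 13 lines.

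Beside the family, the other miRNAs tied to epithelial and mesenchymal state were counted in the same fits. In spindle against malignant squamous lines, 6 of 7 epithelial probes were lower and 5 of 5 mesenchymal probes higher, with 0 called in either list at medians of -1.55 and 1.15. The smallest p belonged to miR-200a (-1.55 ± 0.55, SE, limma adjusted p = 0.99) and miR-143 (1.75 ± 0.49, limma adjusted p = 0.94). In spindle against non-malignant lines, 7 of 7 epithelial probes were lower with a median of -2.23 and 5 of 5 mesenchymal probes higher with a median of 0.82, and 0 were called. In malignant against non-malignant squamous lines the medians were -0.70 and -0.12, with 0 called.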

How the data were processed

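The authors' deposited table holds 14 arrays of 1271 probes and no missing value, and 0 of its columns lacked a sample. Its unit, log2 signal, was inferred from the range of the deposited values, 5.93 to 15.2. RNA was isolated with a Qiagen kit and labelled with the Exiqon kit, per the labels' protocols. How the arrays were scanned, background-corrected and normalized is not given in the sources used here. Centring and offset are unknown. The column medians lay between 6.71 and 6.86, and no further scaling was applied. There is no read depth, and the number of arrays limits the precision.

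Groups came from the phenotype label. The 576 probes that name a mouse miRNA were fitted by the moderated linear models of limma 3.58.1 under R 4.3.3 (two-sided, with an intensity trend in eBayes and Benjamini-Hochberg over 576 probes, adjusted p of 0.05). The 3 phenotypes were fitted in 1 model over 13 lines, papilloma and immortalized lines in a model with 4 groups, and sister lines with tumour as a fixed block. The difference between the tumours was added as an interaction after the values were known. The fits were also run on simulated data with independent lines. These data hold no related lines and no arrays that stand apart, so they cannot test the fits for those features. The members and lists were chosen with earlier results of these data known. All members are named, with every other miR-30 arm, miR-384-5p, the 5 mouse probes with the highest r to the members' mean, the most similar probe of each member, and up to 2 probes with the smallest p of a list. The named blood, endothelial, muscle, neural and broadly expressed lists served to describe arrays and lineage: in spindle against malignant squamous lines their median differences were 0.06, -0.07, 0.00, 0.51 and -0.10, with 0 probes called. Alternatives covered the scale of the arrays, the eBayes settings, the probes tested, array weights, the A5 array used, the lines included, the tumour as a random block and Mus spretus ancestry, on which the labels disagree for NK and P6.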

Additional observations from a re-analysis of the deposited data

Results flagged for a closer look

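For 2 probes, 1 spindle line lay far from the other 4 relative to the range of the group. For miR-30c-1*, CARB read 7.68, where the next spindle line had 6.75 and the group's lowest 6.502. For miR-384-5p, CARB read 6.82, where the next spindle line had 6.38, both within 1 unit of the negative controls. In all 26 groups of 5 lines were tested this way, and chance flags about 1 in 20. None of the 5 miR-30 members had such a line in either group of 5 lines.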

How the results depend on the processing

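No member passed the threshold under any of the alternatives run except relative to U6, where 4 of 5 members (and 519 of 576 probes) were called lower in malignant than in non-malignant squamous lines. That scaling includes the C5N array, where the first U6 probe stood below the negative control median. Scaling to U6, to the 75th percentile or to the broadly expressed miRNAs moved the median of all probes by 1.00, 0.17 and 0.16 in spindle against malignant squamous lines, by -1.36, -1.02 and -0.81 in spindle against non-malignant lines, by -2.36, -1.19 and -0.97 in malignant against non-malignant squamous lines, and by -0.30, 0.84 and 0.41 in papilloma against immortalized lines. Relative to the median of all probes the members' medians were -0.89, -0.16, 0.67 and -1.04. They are the same under all 3 because each shifts all probes of an array alike. With quantile normalization they were -0.64, -0.42, 0.16 and -0.30. These offsets depend on the probes taken as the reference. On the deposited scale the median of all probes was -0.01, 0.03, 0.03 and -0.12 in the 4 comparisons. For the 240 probes above background in at least 2 lines it was -0.10, 0.26, 0.30 and -0.31. Within tumours, U6 scaling moved the median of all probes by 1.25.

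Over all 576 probes, 0 calls in spindle against non-malignant lines became 2 with quantile normalization, 7 with the 75th percentile, 10 with U6, 5 relative to the broadly expressed miRNAs, 9 with array weights and 7 without C5N, MSCP1 and A5, and 0 calls in spindle against malignant squamous lines became 3 with array weights. The broadly expressed scaling was chosen after seeing the data.

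Signs that turned and medians that moved were as follows, and where no value beside them shows a cause, the cause was not tested. In spindle against malignant squamous lines, U6 scaling gave a median of 0.10, with 0.0179 for miR-30b, 0.10 for miR-30c, 0.81 for miR-30d and 0.76 for miR-30e. In spindle against non-malignant lines the median was -1.15 with the 75th percentile and -1.49 with U6. miR-30d was -0.90 with the 75th percentile, -1.24 with U6, -0.70 relative to the broadly expressed miRNAs, -0.0816 with array weights and -0.22 without C5N, MSCP1 and A5. In malignant against non-malignant squamous lines, miR-30e was -0.28 with quantile normalization. The median was -0.49 with the 75th percentile, where miR-30a to miR-30e had -0.41, -0.28, -0.49, -0.88 and -1.08. It was -1.66 with U6, where they had -1.58, -1.45, -1.66, -2.05 and -2.24. It was -0.28 relative to the broadly expressed miRNAs, where they had -0.19, -0.0631, -0.28, -0.67 and -0.86. Without C5N, MSCP1 and A5 they had -0.065, -0.24, -0.0119, -0.12 and -0.39, and with array weights miR-30a, miR-30b, miR-30c and miR-30e had -0.11, -0.0699, -0.0588 and -0.22. In papilloma against immortalized lines, the 75th percentile gave 0.15 for miR-30b and 0.36 for miR-30d. Within tumours, U6 scaling gave a median of 0.43, with 0.43, 0.39, 0.39 and 1.19 for miR-30a, miR-30b, miR-30c and miR-30e, and miR-30e was 0.0097 relative to the broadly expressed miRNAs, 0.0043 with array weights and 0.19 without A5.

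Leaving out each line in turn, the members' median ran from -1.20 (without H11) to -0.52 (without A5) in spindle against malignant squamous lines, from -0.43 (without MSCP1) to 0.17 (without A5) in spindle against non-malignant lines, from 0.30 (without MSCP1) to 0.99 (without C50) in malignant against non-malignant squamous lines, from -1.72 (without P6) to -0.23 (without MSCP1) in papilloma against immortalized lines, and from -1.23 (without E4) to 0.40 (without B9) within tumours. Single members ran from -0.60 to 0.14 for miR-30e in the first. In the second they ran from -0.65 to 0.0897 for miR-30a, from -0.57 to 0.39 for miR-30b, from -0.60 to 0.17 for miR-30c, from -0.0657 to 0.31 for miR-30d and from -0.42 to 0.15 for miR-30e. In the third they ran from -0.27 to 0.47 for miR-30e, and in the fourth from -1.82 to 0.35 for miR-30b. Within tumours they ran from -1.80 to 0.40 for miR-30b, from -1.53 to 0.0386 for miR-30c, from -0.42 to 0.90 for miR-30d and from -1.002 to 1.19 for miR-30e. Pairing by replicate number could not be fitted, because replicate numbers in the labels go only to the 2 arrays of A5. Relatedness entered through the tumour of origin instead.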
